A study of Mus musculus with 6 samples.

Results

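The genes described here are those whose symbol starts with Ube2, the name given to the ubiquitin-conjugating enzymes (E2 enzymes) and a few relatives. They were taken by symbol alone from the platform annotation, using probe sets paired with 1 gene and keeping the brightest probe set of each. The rule found 33 genes among 18193 with such a probe set, and 30 of them passed the filter on dim probe sets, among 10520 genes that passed in all. 2 of the 33 are neither E2 enzymes nor E2 variants: Ube2cbp, which encodes an E2-binding protein, and Ube2d-ps, a noncoding relative of the Ube2d genes. Ube2v1 and Ube2v2 encode inactive E2 variants. Ube2m and Ube2l3, E2 genes for NEDD8 and for a set of RING-between-RING ligases, had no probe set of their own in the annotation used and are not analysed here.

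The tested cells were 3 samples of mouse Ba/F3-N cells given 1 µM N-arachidonoyl dopamine (NADA) for 12 hours, and the control cells were 3 samples given an equal volume of vehicle for 12 hours. Ba/F3-N is a mouse line of bone marrow origin transformed with the G12D form of NRAS, a mutant small GTPase that signals without pause, and both groups carry it. The labels do not say whether the line is 1 clone or whether the samples of a group were separate cultures, so a p-value here rests on the differences among arrays alone, and these can be technical. NADA joins a fatty acid, arachidonic acid, to the transmitter dopamine, and is a ligand of the channel TRPV1 and of cannabinoid receptors. Each RNA sample was hybridised to 1 Affymetrix mouse array, and the number of arrays, 3 per group, limits the precision.

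Ubiquitin reaches its targets through a relay. An E1 enzyme activates it, an E2 enzyme carries it as a thioester on a cysteine, and an E3 ligase brings the loaded E2 to the substrate. The E2 often decides which chain is built, and with it whether a protein is sent to the proteasome, moved, or used as a signalling platform. Some E2 enzymes carry other modifiers, such as ISG15, which is part of the antiviral response, or NEDD8, which switches on cullin ligases.

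The values are the authors' linear intensities, and a log2 fold change is NADA over vehicle. Arrays of 1 group correlated at 0.997 to 0.998 over the 10520 genes and arrays of different groups at 0.936 to 0.939. The array medians of the gene probe sets lay between 38.9 and 39.1 in NADA and between 37.9 and 38.1 in vehicle. The bacterial poly-A RNAs, which are spiked into the RNA before labelling, stood at a mean log2 intensity of 8.72 ± 0.21 in NADA and 8.14 ± 0.01 in vehicle (SD, n = 3 each). Scaling to them lowers every log2 fold change by 0.58. For Actb the log2 ratio of its 3' to its 5' control probe set came to 1.06 ± 0.05 in NADA against 0.67 ± 0.04 in vehicle. The part of these differences in the results below was not tested. Of 10 named markers of pro-B cells and cytokine-dependent progenitors, 5 had a mean above the dim limit of 39.0, among them the receptor genes Csf2rb (3337 in NADA, 990 in vehicle) and Il3ra (152 and 106), while Ebf1, Pax5, Kit, Cd79a and Vpreb1 lay below it. Of 6 macrophage markers 3 lay above it, and the summed level of the list ran from 599 to 638 in NADA and from 339 to 369 in vehicle, with C1qa, C1qb and Mrc1 below the limit on average. In bulk RNA, less transcript per cell and fewer cells that hold it cannot be told apart.

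Most Ube2 genes differed between the groups, and more were lower than higher in NADA. Of the 30 genes tested, 24 were called at an adjusted p under 0.05 (80.0%, against 73.5% of all genes tested), with 7 higher and 17 lower. Over all genes, 35.9% were called higher and 37.6% lower. The 24 calls therefore lie near the share seen over the whole array. With scaling to the poly-A RNAs the split of the Ube2 calls became 3 higher and 23 lower, where 7.04% of all genes were called higher and 76% lower. A change of at least 1.5-fold was seen in 10 called genes (33.3%, against 29% of all genes), 5 in each direction. The 5 lower ones include Ube2cbp and Ube2d-ps, which are not E2 enzymes. The 5 higher ones include Ube2v2, whose direction depended on the probe set. In 25 genes the groups were fully apart, with all NADA arrays on 1 side of all vehicle arrays (83.3%, against 76% of all genes). The median log2 fold change was -0.15 for the Ube2 genes and 0.01 for all genes, and the median size of change, without its sign, was 0.36 and 0.32 on the log2 scale. Ube2b and Ube2h had the highest fold changes and Ube2n, Ube2cbp and Ube2d-ps the lowest. Ube2l6 followed Ube2h at 1.08, but its vehicle values lay below the dim limit, and with all low intensities raised to 50 it stood at 0.11 and was not called.

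**Figure D1:**
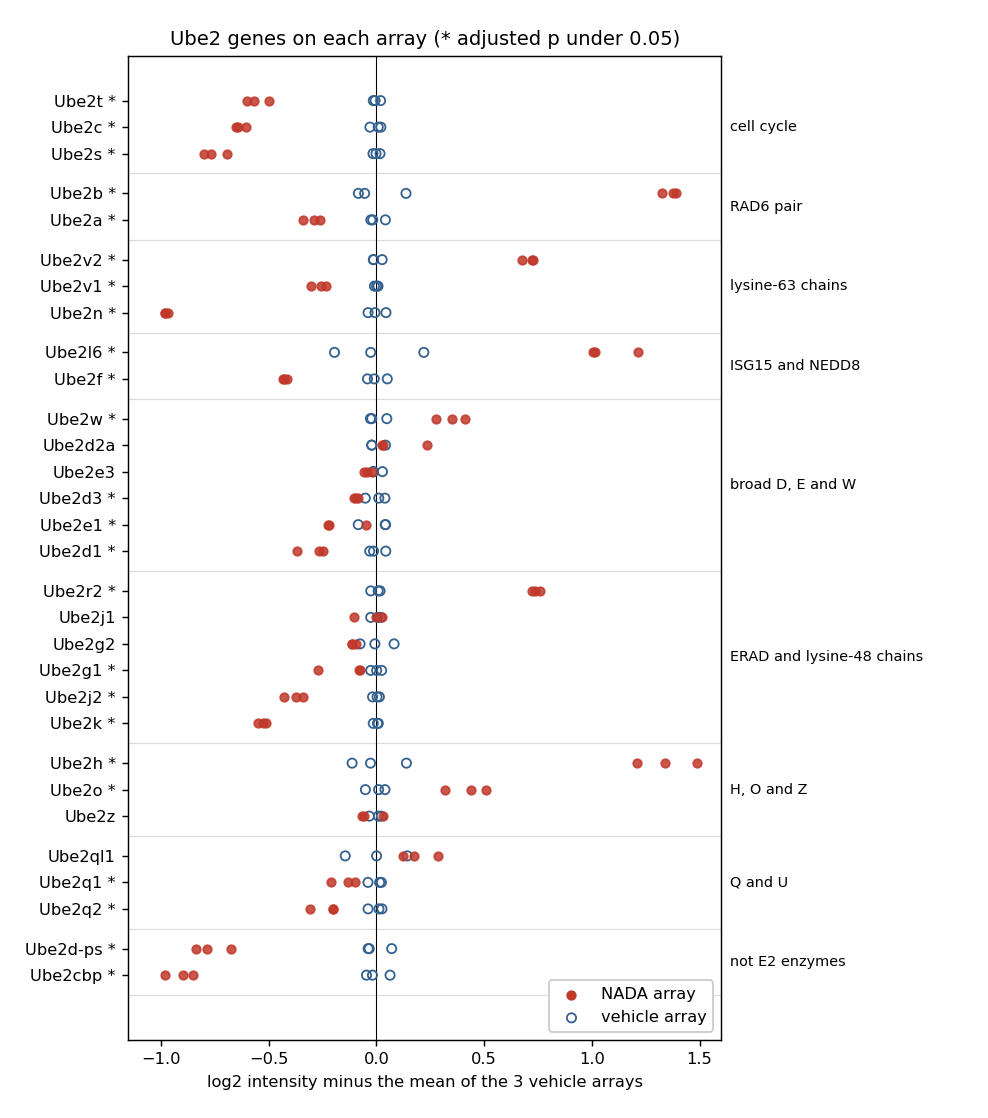
Log2 intensity of the 30 tested Ube2 genes on each array, relative to the mean of the 3 vehicle arrays of that gene (x axis, log2), with 3 NADA arrays as filled points and 3 vehicle arrays as open points, grouped by role. Asterisks mark the 24 called genes. Ube2b, Ube2h and Ube2l6 lie more than 1 to the right and Ube2n nearly 1 to the left.

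Promoter sequence is shown for the 2 genes with the highest fold changes and for Ube2c, the mitotic E2, because they changed in opposite directions and hold different known motifs. RefSeq promoter windows were at hand for 27 of the 33 Ube2 genes, and the outermost was used where a gene had several. The 250 bases before the start of each gene were searched on both strands for 5 motifs. These were the E-box CACGTG, the cAMP response element TGACGTCA, the CCAAT box CCAAT, the cell cycle homology region TTTGAA and the interferon response element core, which is GAAA, any 2 bases and GAAA again. Capitals mark every match, on the strand of the gene and for the build GRCm38.p6. The windows are chr11:52000787-52001036 (minus strand) for Ube2b, chr6:30304540-30304789 (minus strand) for Ube2h and chr2:164769679-164769928 (plus strand) for Ube2c.
Ube2b: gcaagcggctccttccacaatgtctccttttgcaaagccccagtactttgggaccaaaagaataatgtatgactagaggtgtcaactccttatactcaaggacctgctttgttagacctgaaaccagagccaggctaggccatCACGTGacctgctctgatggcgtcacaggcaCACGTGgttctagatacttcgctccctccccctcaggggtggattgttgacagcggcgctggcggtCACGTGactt
Ube2h: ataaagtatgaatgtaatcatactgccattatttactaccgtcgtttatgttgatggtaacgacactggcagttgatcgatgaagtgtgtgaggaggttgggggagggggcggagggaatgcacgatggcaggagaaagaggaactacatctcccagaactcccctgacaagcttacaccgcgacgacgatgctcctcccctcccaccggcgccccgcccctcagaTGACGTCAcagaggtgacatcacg
Ube2c: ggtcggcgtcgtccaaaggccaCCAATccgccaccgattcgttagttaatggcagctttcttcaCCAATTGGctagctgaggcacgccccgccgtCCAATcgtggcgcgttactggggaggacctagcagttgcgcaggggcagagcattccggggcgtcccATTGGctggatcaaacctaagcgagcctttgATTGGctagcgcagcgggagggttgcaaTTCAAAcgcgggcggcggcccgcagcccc
The Ube2b window held the E-box 3 times, and the E-box stood in 2 of the 27 Ube2 windows, Ube2b and Ube2q1, and in 6.04% of 27025 promoters. Among the 27 Ube2 windows searched, only that of Ube2h had the cAMP response element, which 1.6% of promoters held. In Ube2c the CCAAT box matched 6 times, with 2 matches overlapping, beside 1 copy of the cell cycle homology region. Over all promoters 34.5% held a CCAAT box and 16.3% the cell cycle homology region, against 7 and 4 of the 27 Ube2 windows. The interferon response element core was in 3.05% of promoters and in 0 of the 27 Ube2 windows, that of Ube2l6 included. These are matches of letters in a short window and no evidence of binding, and the windows printed were chosen after their matches were seen.

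Ube2b and Ube2a encode the mouse RAD6 pair, E2 enzymes that ubiquitinate the sliding clamp PCNA with RAD18 and histone H2B with RNF20 and RNF40. The pair moved apart. Ube2b had intensities of 3254, 3227 and 3107 in NADA, against 1366, 1172 and 1196 in vehicle. Every NADA array was far above every vehicle array, and the log2 fold change was 1.36 ± 0.05 (SE of the limma fit, adjusted p = 3.07e-13). All 4 probe sets of Ube2b were called higher, with log2 fold changes of 1.22 to 1.46. Ube2a had 1266, 1291 and 1220 in NADA, against 1591, 1519 and 1528 in vehicle. The groups did not overlap, and the gene fell by 0.30 on the log2 scale (adjusted p = 1.13e-06), while its other probe set, at -0.07, was not called. The log2 ratio of Ube2b to Ube2a was 1.66 higher in NADA. Its exact permutation p was 0.1, two-sided, the smallest that 3 against 3 arrays allow. That p was fixed beforehand, since Ube2b and Ube2a already separated the groups in opposite directions, and it adds no support.

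Ube2h, which loads ubiquitin for the GID/CTLH ligase and is known for its rise late in red cell formation, had 515, 465 and 425 in NADA, against 181, 203 and 170 in vehicle. The lowest NADA array stood above the highest vehicle array by more than the range of either group, with a log2 fold change of 1.34 ± 0.07 (adjusted p = 6.15e-11). Its 3 dimmer probe sets were called higher too, at 2.32, 1.91 and 0.33, so the size of the rise differed with the probe set. The one at 2.32 is of the x type, which can bind transcripts of other genes. Ube2o, a large enzyme that acts as both E2 and E3 and clears ribosomal proteins in maturing red cells, had 224, 214 and 197 in NADA, against 162, 152 and 159 in vehicle. It rose by 0.42 ± 0.06 (adjusted p = 8.88e-06) with the values as deposited, and stood at -0.16 after scaling to the poly-A RNAs. Ube2z, which takes ubiquitin and FAT10 from UBA6, was not called (-0.03, adjusted p = 0.589) and its groups overlapped, and after poly-A scaling it was called lower, at -0.61.

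Ube2l6 encodes the E2 for ISG15 and lay near the dim limit. It had 51.7, 51.3 and 59.4 in NADA, against 25.1, 29.8 and 22.4 in vehicle. The groups did not overlap, and the log2 fold change was 1.08 ± 0.11 (adjusted p = 1.56e-07). Its mean over all arrays, 40.0, was just above the dim limit of 39.0, so it entered the test through its NADA values, and its vehicle values lay below the limit. With a floor of 50 under the intensities the log2 fold change was 0.11 and the gene was not called (adjusted p = 0.162). The next member above it was Ube2ql1, with a mean of 42.7, and the 3 genes below the limit were Ube2e2 (10.2 in NADA, 10.3 in vehicle), Ube2u (7.02 and 6.86) and Ube2d2b (3.82 and 3.67). For these 3 the groups overlapped, and they were not tested.

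Ube2f, an E2 for NEDD8 that serves CUL5 with RNF7, had 556, 562 and 556 in NADA, against 744, 728 and 776 in vehicle. Its NADA arrays were all lower, by 0.43 on the log2 scale (SE 0.04, adjusted p = 6.00e-08). Of its 5 probe sets above the dim limit 4 were called lower, at -0.54 to -0.37, and 1 was called higher, at 0.37. Some of those called lower are of the x type, and the one called higher is not.

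The E2 enzymes of cell division and of crosslink repair were lower in NADA, all 3 of those tested, where 37.6% of all genes were called lower (76% after scaling to the poly-A RNAs). Ube2c starts ubiquitin chains on substrates of the anaphase-promoting complex (APC/C), and Ube2s extends them. Ube2c had 1958, 2022 and 1974 in NADA, against 3124, 3098 and 3016 in vehicle. Ube2s had 1817, 1724 and 1686 in NADA, against 2972, 2934 and 2906 in vehicle. For both genes the highest NADA array stood below the lowest vehicle array by far more than the range of either group. Ube2c fell by 0.63 on the log2 scale (SE 0.03, adjusted p = 1.10e-11) and Ube2s by 0.75 (SE 0.03, adjusted p = 4.95e-12). The Ube2s probe set is of the s type, which can bind transcripts of more than 1 gene. Ube2t, the E2 of the Fanconi anaemia pathway, which monoubiquitinates FANCD2 and FANCI with FANCL, had 399, 372 and 380 in NADA, against 571, 557 and 561 in vehicle. It fell by 0.55 on the log2 scale (SE 0.04, adjusted p = 6.66e-09), without overlap of the groups.

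Ube2n is the catalytic E2 for chains linked through lysine K63, which serve NF-kB signalling and DNA damage tolerance, and it builds them together with an inactive E2 variant, Ube2v1 or Ube2v2. Ube2n had 463, 464 and 468 in NADA, against 943, 891 and 911 in vehicle. It was the lowest of the Ube2 genes in fold change, -0.98 ± 0.04 (adjusted p = 1.74e-12), with its NADA arrays close together and all far below vehicle. The second probe set gave -1.03. Ube2v1, the partner of Ube2n in NF-kB signalling, had 1012, 966 and 996 in NADA, against 1193, 1185 and 1199 in vehicle. It fell by 0.27 on the log2 scale (SE 0.03, adjusted p = 3.18e-06) by an s-type probe set, and its other probe set gave -0.45.

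Ube2v2, also called Mms2, the partner of Ube2n at stalled replication forks, went in opposite directions by probe set. Its brightest probe set had 1857, 1799 and 1864 in NADA, against 1114, 1146 and 1114 in vehicle, a log2 fold change of 0.71 ± 0.03 (adjusted p = 9.79e-12). The second brightest had 151, 153 and 153 in NADA, against 261, 239 and 245 in vehicle (-0.70 ± 0.05, adjusted p = 6.51e-08 over all probe sets), and the third gave -0.96. All 3 separated the groups fully, so the direction given for Ube2v2 depends on the probe set. Scaled to the poly-A RNAs, the brightest gave 0.13 and was not called (adjusted p = 0.315). The log2 ratio of the brightest to the second brightest was 3.59 ± 0.03 in NADA and 2.18 ± 0.08 in vehicle (SD, n = 3 each, exact permutation p = 0.1, the smallest possible). That p was fixed beforehand, since these probe sets separated the groups in opposite directions. The log2 ratio of Ube2v2 to Ube2v1 differed between NADA and vehicle by 0.98 with the brightest Ube2v2 probe set and by -0.44 with the second brightest.

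**Figure D2:**
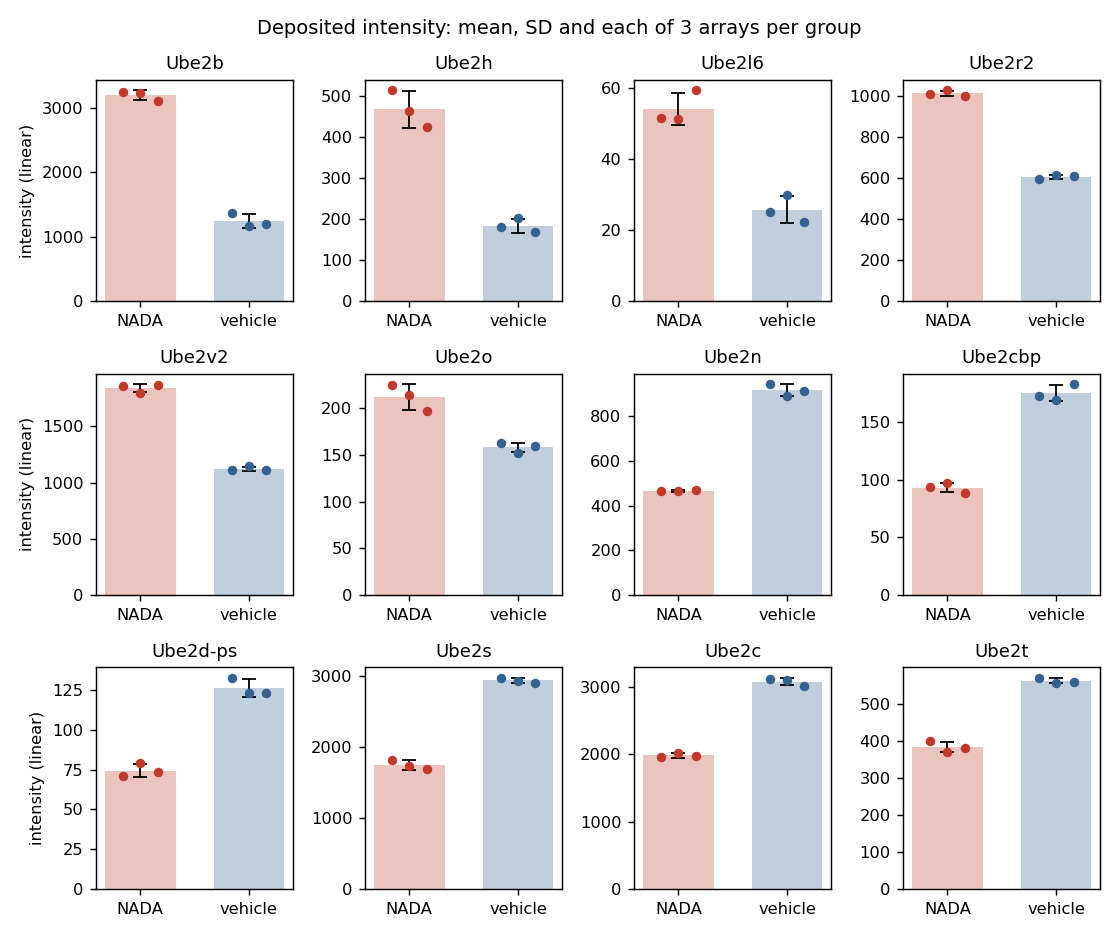
Deposited linear intensity of 12 Ube2 genes (y axis from 0, 1 scale per gene) in NADA and vehicle cells, with bars for the mean, error bars for the SD and points for the 3 arrays of each group. In every panel all 3 NADA arrays lie on 1 side of the 3 vehicle arrays. Ube2l6 is the only one of the 12 with vehicle values under the dim limit of 39.0.

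E2 enzymes that build K48 chains for the proteasome, several of them at the endoplasmic reticulum (ER), gave 1 gene higher, 3 lower and 2 not called. These shares, 16.7% higher and 50% lower, stand beside 35.9% and 37.6% of all genes. Ube2r2, a close relative of Cdc34 that works with SCF ligases, had 1011, 1028 and 1001 in NADA, against 596, 614 and 610 in vehicle. It rose by 0.74 ± 0.04 (adjusted p = 2.14e-11) by its brightest probe set, without overlap, and its dimmer one, at 0.18, was not called. Scaled to the poly-A RNAs, it stood at 0.16 and was not called (adjusted p = 0.199). Cdc34, whose symbol falls outside the rule, had 339, 376 and 342 in NADA, against 618, 607 and 643 in vehicle, and fell by 0.82 on the log2 scale (SE 0.05, adjusted p = 1.95e-10). The log2 ratio of Ube2r2 to Cdc34 was 1.56 higher in NADA (exact permutation p = 0.1, the smallest possible). That p was fixed beforehand too, since Ube2r2 and Cdc34 separated the groups in opposite directions. Ube2k, which makes K48 chains by itself, had 1688, 1668 and 1645 in NADA, against 2420, 2381 and 2413 in vehicle. It fell by 0.53 on the log2 scale (adjusted p = 1.05e-10), with its NADA arrays close together and all below vehicle. Its second brightest probe set, at -0.04, was not called (adjusted p = 0.653 over all probe sets) and its groups overlapped, while the third gave -0.71.

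The membrane-anchored ER enzyme Ube2j2 had 660, 645 and 621 in NADA, against 825, 843 and 837 in vehicle. It fell by 0.38 on the log2 scale (adjusted p = 1.77e-07), although its other probe set, at 0.04, was not called. Its paralogue Ube2j1, which works with the ER ligase SYVN1, had 560, 572 and 522 in NADA, against 551, 563 and 569 in vehicle. These values overlap and the gene was not called (-0.03 ± 0.04, adjusted p = 0.604), but it was called lower after poly-A scaling, at -0.60. Ube2g2, an E2 enzyme of ER-associated degradation, had 261, 264 and 260 in NADA, against 298, 267 and 280 in vehicle. Its groups separated narrowly, and it was not called (-0.11 ± 0.05, adjusted p = 0.0726). It was called lower under median centring (-0.14, adjusted p = 0.0237), without vehicle replicate 2 (-0.14, adjusted p = 0.0353) and, at -0.69, after scaling to the poly-A RNAs. Ube2g1 fell by 0.14 on the log2 scale (adjusted p = 0.0122), a call lost under quantile normalization (-0.05, adjusted p = 0.274). NADA replicate 3, at 948, stood below the other NADA arrays at 1085 and 1080, and without it the value was -0.08 (adjusted p = 0.0320).

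Of the 5 tested D and E enzymes, which serve a wide range of ligases, 3 were called lower and 2 not called. Over all genes, 37.6% were called lower. With scaling to the poly-A RNAs all 5 were called lower, as were 76% of all genes. Ube2d1 then stood at -0.87, Ube2e1 at -0.74, Ube2d3 at -0.67, Ube2e3 at -0.62 and Ube2d2a at -0.48. Ube2d3, at 3163 ± 23.3 in NADA and 3379 ± 108 in vehicle (SD, n = 3 each), fell by 0.09 on the log2 scale (adjusted p = 0.00895), and the call was lost without vehicle replicate 2 (-0.07, adjusted p = 0.0643). Ube2d1 fell by 0.29 (adjusted p = 2.97e-04) without overlap. Ube2e1 fell by 0.16 (adjusted p = 0.00464), although its groups overlapped, and the call was lost under quantile normalization (-0.10, adjusted p = 0.0521). The other Ube2e1 probe set, at -0.02, was not called. Ube2d2a (0.10, adjusted p = 0.0738) and Ube2e3 (-0.04, adjusted p = 0.214) were not called, and 3 of the 5 probe sets of Ube2d2a were called lower. Ube2w, which places ubiquitin on the amino terminus of proteins, had 271, 260 and 246 in NADA, against 201, 200 and 210 in vehicle. It rose by 0.35 ± 0.05 (adjusted p = 2.08e-05), with all 3 probe sets above the dim limit called higher, and stood at -0.23 after scaling to the poly-A RNAs.

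Of the Q enzymes, which are less studied, Ube2q1 and Ube2q2 fell by 0.15 and 0.23 on the log2 scale (adjusted p = 0.00329 and 0.00196), and Ube2ql1 was not called (0.20, adjusted p = 0.0696). The dimmer probe set of Ube2q1 gave -0.63, and under quantile normalization its brightest gave -0.06 and was not called (adjusted p = 0.139). Ube2cbp, the E2-binding protein gene, had 93.8, 96.9 and 88.5 in NADA, against 173, 169 and 183 in vehicle, and changed by -0.91 ± 0.06 (adjusted p = 1.16e-09). Ube2d-ps had 70.7, 79.0 and 73.3 in NADA, against 133, 123 and 123 in vehicle (-0.76 ± 0.07, adjusted p = 3.34e-08). Neither gene had overlapping groups.

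Probe sets of the same gene did not always move alike. The 33 genes had 81 probe sets, of which 67 passed the dim filter. Tested one by one among all probe sets with 1 gene, 50 of the 67 were called (74.6%, against 72% of all), 16 higher and 34 lower. Of 19 genes with several probe sets above the limit, 15 had all their called probe sets on 1 side, 2 had none called, and 2 (Ube2v2 and Ube2f) had calls in both directions. That is 10.5% of the 19, against 4.96% of 4858 genes over the array. No probe coordinates were used here, so which transcript each probe set reads was not tested.

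**Figure D3:**
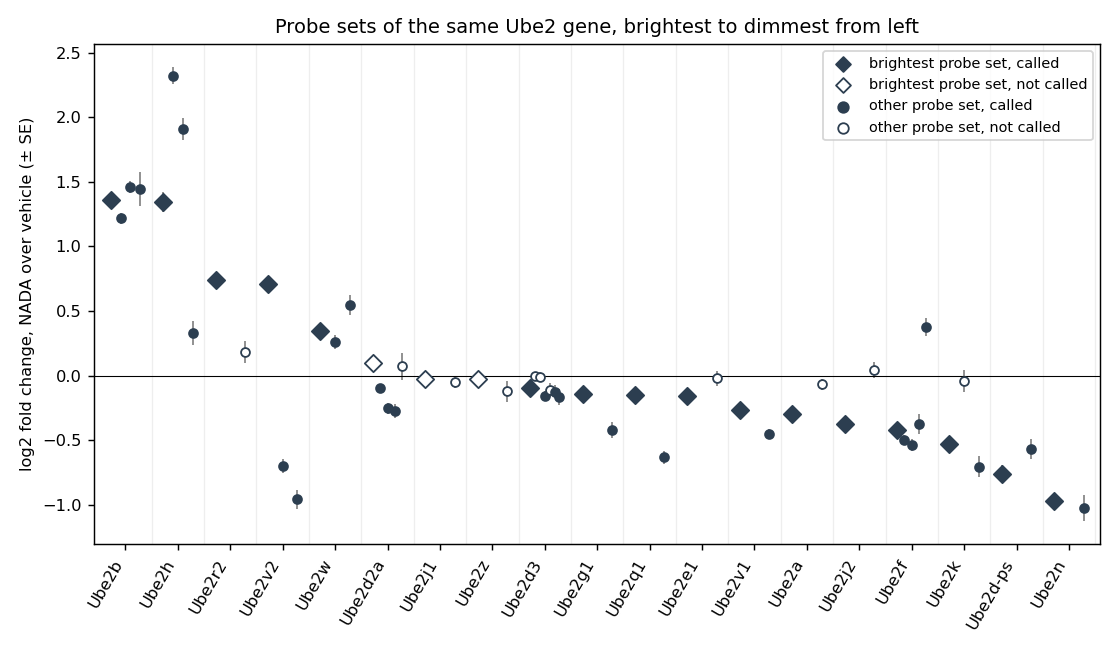
Log2 fold change, NADA over vehicle, with its SE (y axis), of every probe set above the dim limit for the 19 Ube2 genes that have several, ordered within a gene from the brightest at the left. Diamonds are the brightest probe sets and filled symbols are called. The 4 probe sets of Ube2b lie close together at 1.22 to 1.46, those of Ube2h spread from 0.33 to 2.32, and Ube2v2 runs from 0.71 to -0.96.

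Genes that work with these enzymes were followed in 12 lists, and some genes stand in several. Their counts are read against the 35.9% of genes called higher and the 37.6% called lower over the array. Scaling to the poly-A RNAs lowers each value below by 0.58, so that a log2 fold change between 0 and 0.58 turns negative. Around Ube2l6, all 4 tested members of the ISG15 system were higher, of 5 listed. Isg15 itself had no probe set of its own in the annotation used and was not tested. The ISG15 protease Usp18 had 546, 564 and 570 in NADA, against 127, 129 and 124 in vehicle (log2 fold change 2.14 ± 0.05, adjusted p = 2.65e-15). The ligase gene Herc6 rose by 1.81, the E1 gene Uba7 by 1.22 and Trim25 by 1.03, and the groups of each gene lay apart. Trim25 was read by an s-type probe set. The median of the list was 1.52.

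Around Ube2h, 7 of 11 genes of the GID/CTLH ligase were higher and 3 lower, with a median of 0.23. Ypel5, which binds the complex, had 1060, 993 and 955 in NADA, against 201, 196 and 213 in vehicle (2.30 ± 0.05, adjusted p = 1.99e-15). Ranbp10 rose by 0.81, Rmnd5a by 0.64 and Ranbp9 by 0.57. The substrate receptor gene Gid4 (-0.61), Armc8 (-0.46) and Gid8 (-0.40) fell, and these 3 are named after their values were seen.

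Around Ube2t, 9 of 12 genes of the Fanconi anaemia group were lower and 2 higher, with a median of -0.49. Fancb (-1.29), Fance (-0.87) and Fancf (-0.82) of the core complex fell, as did Usp1 (-0.85), whose product removes ubiquitin from FANCD2. Among 16 APC/C genes, partners of Ube2c and Ube2s, 6 were lower, 4 higher and 6 not called, with a median of -0.07. Anapc15 changed by -1.53 and the RING subunit gene Anapc11 by -0.71, whereas Anapc2, the cullin-like subunit gene, rose by 0.64. Anapc5 fell by 0.42 on the log2 scale.

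Partners of Ube2n, Ube2v1, Ube2v2 and the RAD6 pair gave 4 higher and 6 lower of 10, with a median of -0.15. Pcna (-0.81), Rnf168 (-0.77) and Rad18 (-0.31) fell, and the fork remodeller gene Hltf rose by 0.57. At the ER, 7 of 10 ligase and retrotranslocation genes were higher and 1 lower, with a median of 0.57. Syvn1 rose by 1.66, Derl1 by 0.97, Sel1l by 0.78 and the segregase gene Vcp by 0.74, while the ER enzymes Ube2j1 and Ube2g2 were not called and Ube2j2 fell. Around Ube2f, 8 of 17 NEDD8 genes were lower and 2 higher, with a median of -0.10. Dcun1d2 (-0.75), Dcun1d5 (-0.70), Nae1 (-0.48) and Nedd8 itself (-0.47) fell. The 2 higher genes were the E1 gene Uba3 (0.38) and Rbx1 (0.30), named after their values were seen.

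Upstream of the relay, 7 of 10 listed E1 genes could be tested, and they gave 3 higher, 3 lower and 1 not called. Uba1, the other ubiquitin E1 beside Uba6, had no probe set of its own in the annotation used and was not tested. Sae1, a subunit of the SUMO E1, had 615, 653 and 627 in NADA, against 1220, 1303 and 1298 in vehicle, and changed by -1.01 ± 0.04 (adjusted p = 1.52e-12). Uba6, the second ubiquitin E1 and the source of ubiquitin for Ube2z, fell by 0.34 on the log2 scale. Uba7 and Uba3, given above, were higher, and Nae1 was lower. Of 8 E2-type genes named otherwise, 5 were higher and 3 lower: besides Cdc34, the UFM1 enzyme Ufc1 rose by 0.40, the autophagy enzyme Atg10 by 0.36, and Tsg101 fell by 0.28. Of 5 tested modifier genes 3 were lower, Sumo3 (-0.51), Nedd8 and Ufm1 (-0.11), and 2 were not called. The SUMO pathway had 5 of 13 higher and 8 lower (median -0.28), with Senp7 at 1.22, Senp1 at -0.68 and Sae1 and Sumo3 as above. RING-between-RING ligases and their partners had 4 of 8 higher and 1 lower (median 0.18), with Rnf19a at 0.76, Rnf19b at 0.53, Arih2 at 0.21 and Rbck1 at -0.67.

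**Figure D4:**
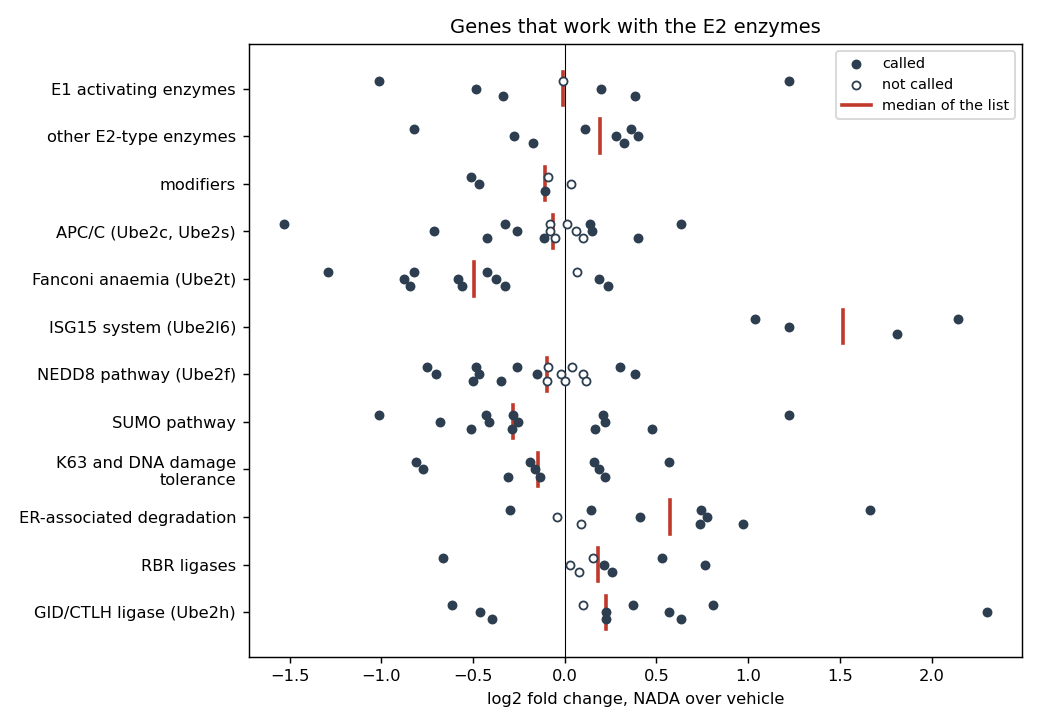
Log2 fold change, NADA over vehicle (x axis), of the tested genes of 12 partner lists (rows), with filled points for called genes, open points for genes not called and a bar for the median of each list. All 4 points of the ISG15 system lie above 1, and the Fanconi anaemia list has its median at -0.49.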

How the data were processed

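Transcript levels were measured in 6 samples of a mouse cell line, 3 per group, as the titles in the labels assign them. The authors deposited intensities on a linear scale for 45101 probe sets. Per the submitters' processing notes the tools included MAS5 and RMA, without versions or roles. The deposited intensities ran from 2.19 to 20113, and the array medians were close, so they were used as normalized by the authors, after log2. Such a normalization hides a change shared by most transcripts.

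The platform annotation paired 34945 probe sets with 1 gene, 932 with several and 9160 with none, and 64 are controls. Gene identifiers of 34741 matched a RefSeq table of GRCm38.p6, which changed 0 symbols. Dim probe sets, whose mean over the 6 arrays was below 39.0 (the median of all that are no controls), were removed, and the brightest was kept per gene. Groups were compared over 10520 genes by limma 3.58.1 in R 4.3.3 (lmFit, eBayes with an intensity trend, two-sided), with calls at 0.05 after Benjamini-Hochberg adjustment. Rose and fell are used of called genes. An error beside a log2 fold change is the SE of that fit. The steps were run on simulated data with independent noise and far fewer changed genes than were called here. That run checks the steps and not the calls. Single values were compared by an exact permutation test over arrays, in 5 ratios of related genes or probe sets chosen after seeing the data. Promoters came from RefSeq (GRCm38.p6), and plots from matplotlib 3.10.9.

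The members and lists were chosen with earlier results of these data known. All Ube2 genes were accounted for. Values on every array are given for the 6 highest and 6 lowest called members and for genes of set roles, and up to 4 partners with the smallest p are named per list. Same-numbered arrays deviated together with correlations of 0.16, -0.10 and 0.02, and arrays of unlike number with correlations from -0.21 to 0.18. These values gave no clear sign of pairing by number, but so few arrays cannot exclude it. Alternatives were other scalings, a pseudocount of 32, a floor of 50, other dim filters, variance models, probe set choices and thresholds, the replicate block, and leaving out each array.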

Additional observations from a re-analysis of the deposited data

How the results depend on the processing

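Of the 30 Ube2 genes tested, 24 were called, and the count lay between 19 and 26 under the alternatives that kept 1 value per gene, and at 24 to 25 when 1 array was left out (7 to 8 higher, 17 lower in each). Scaling to the poly-A RNAs left 3 called higher, Ube2b, Ube2h and Ube2l6, left Ube2r2 and Ube2v2 not called, and turned Ube2o to -0.16, Ube2w to -0.23, Ube2ql1 to -0.38 and Ube2d2a to -0.48. With every probe set tested on its own, chosen after seeing the data, 50 were called, 16 higher and 34 lower. The mean of all passing probe sets turned Ube2v2 to -0.32 and Ube2d2a to -0.091. The second brightest probe set turned Ube2v2 to -0.70, Ube2d2a to -0.10 and Ube2j2 to 0.042, and left Ube2a, Ube2d3, Ube2e1, Ube2k and Ube2r2 not called. Quantile normalization left Ube2e1, Ube2g1 and Ube2q1 not called, a floor of 50 left Ube2e1, Ube2g1 and Ube2l6, and a fit without the intensity trend left Ube2d3 and Ube2g1. Calls were also gained: Ube2d2a higher under quantile normalization (0.16, adjusted p = 0.00595) and without NADA replicate 1 or 2, Ube2e3 and Ube2g2 lower under median centring, Ube2e3, Ube2g2, Ube2j1 and Ube2z lower under poly-A scaling, Ube2g2 lower in the fit on means of probe sets and without vehicle replicate 2, and Ube2ql1 higher without the intensity trend and without vehicle replicate 3. With the replicate number as a block 25 genes were called, and the only call it changed was that of Ube2d2a (0.10, adjusted p = 0.0309). Low signal limits Ube2l6 and Ube2ql1, which lie near the dim limit, and no detection calls were used here. The cause of these changes was not tested.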
